A study of Sus scrofa with 36 samples.

Results

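The nuclear genes of oxidative phosphorylation were described in RNA-Seq data from the subcutaneous adipose tissue of 36 pigs. Members were taken by symbol, as every gene of the deposited table whose name begins with NDUF, UQCR, COX4 to COX8 or ATP5, together with SDHA, SDHB, SDHC and SDHD. This gave 48 of the 12253 genes in the table. There were 19 subunits of complex I, 6 complex I assembly factors (NDUFAF), 4 subunits of complex II, 6 of complex III, 7 of complex IV and 6 members of complex V. NDUFA4, which carries a complex I name and is known as a subunit of complex IV, was counted with complex IV. ATP5IF1, the inhibitor protein of the ATP synthase, was counted with complex V. A symbol was found for 8320 of the gene identifiers, and the other 3933 identifiers can hold further subunits that are not described here. The pig gene names used here hold 80 symbols that match the same patterns.

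Oxidative phosphorylation takes place at the inner mitochondrial membrane. Complexes I and II pass electrons from NADH and succinate to ubiquinone, complex III hands them on to cytochrome c, and complex IV reduces oxygen, while complexes I, III and IV pump protons that complex V uses to make ATP. Complex II is encoded by the nucleus alone, and the other complexes combine nuclear subunits with a few subunits encoded by the mitochondrial genome. White adipocytes hold few mitochondria compared with muscle or brown fat, and use them for ATP supply and for steps of lipid synthesis and breakdown.

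The pigs came from an F2 intercross of Duroc sows and Göttingen minipig boars and were ranked by an Obesity Index, an aggregate genetic value for obesity. There were 12 lean (Low), 12 intermediate (Mean) and 12 obese (High) pigs. The lean pigs were 7 males and 5 females, and the intermediate and the obese pigs were 6 of each sex. None of the groups carried a treatment or an engineered allele. Each pig is its own sample. The samples were run over several lanes, and neither the lane nor the family of a pig was known here. By the study's methods the groups held full sibs, which could not be assigned to single pigs, so that the pigs were not all independent. The pigs were slaughtered at about the same weight, so that the lean pigs were the oldest and the obese pigs the youngest, and the age at slaughter and the group cannot be told apart. Pigs are named below by their group and a number within it, which only serves as a name.

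Between 8735839 and 11755925 reads were recovered for a pig (median 10496910). Levels are given as normalized counts, the reads of a gene divided by the size factor of the pig, and differences on the log2 scale of the deposited values. The deposited values divide by the size factor plus 1 rather than by the size factor, so that differences in depth between pigs are only partly removed, and a difference and the counts beside it need not match exactly. Levels were not compared between genes, since transcript lengths were not used here. The adipocyte markers PLIN1, the perilipin of the lipid droplet, and LIPE, the hormone-sensitive lipase, were high in every pig, with at least 11354 and 6459.7 normalized counts, respectively. None of the brown or beige fat markers on the list, such as UCP1, PRDM16 and CIDEA, was among the genes with a symbol. The study removed genes with low counts, and the smallest count of any gene in a pig was 6 to 7 reads. A gene that was low in some pigs can therefore be missing, so that absence does not show that it was not expressed.

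No member passed the test between obese and lean pigs. In limma, with p-values adjusted by Benjamini-Hochberg (BH) over the whole table, 0 of 48 members had an adjusted p under 0.05, and the smallest adjusted p was 0.209 for UQCR10. Over all genes 5 passed, or 0.0408% of those tested. At an unadjusted p under 0.05 there were 4 members, 3 of them higher and 1 lower in obese pigs. That is 8.33% of the members beside 14.7% of all genes (6.81% of all genes higher and 7.88% lower). The count was 2 without lean pig 11 and without obese pig 5, 8 or 12, each left out alone, and with the lean and obese pigs fitted alone, beside 12.6% to 14.7% of all genes in these fits. It was 6 without lean pig 4 (beside 15.5% of all genes) and 5 without lean pig 2, 5 or 10 (beside 14.5% to 16.6%). The 48 differences ran from -0.19 (NDUFB7) to 0.33 (UQCR10) on the log2 scale, with a median of 0.04 beside -0.01 for all genes. Of the members 31 were above 0 and 17 below, where 47.5% of all genes were above 0. All 48 of the 95% intervals lay within 1 log2 unit of 0, and 46 of 48 lay within 0.5. Differences within an interval remain possible for its gene, and the smallest difference detectable with 12 pigs per group was not determined. The 9 macrophage markers found in the table were all higher in obese pigs by their fitted values, with a median of 0.80. Of the 5 T or NK cell markers 4 were higher by their fitted values (median over the list 0.61), 1 of them, NKG7, at an unadjusted p under 0.05. Of the 7 adipocyte markers 5 were higher (median 0.10), with CIDEC at 0.54 and PLIN4 at 0.74 under that p, and 0 markers of these 3 lists passed BH correction in limma. The 4 endothelial markers were all lower by their fitted values, with a median of -0.31, 2 of them at an unadjusted p under 0.05 and 0 after BH correction in limma (smallest adjusted p = 0.0709, TIE1). The part of these markers in the member differences was not tested. In bulk tissue, fewer cells of a type and less RNA per cell cannot be told apart.

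The directions of the fitted differences between obese and lean pigs are given here by complex. Complex I was centred on 0, with 10 subunits higher, 9 lower and a median difference of 0.0036 on the log2 scale. All 4 subunits of complex II and all 6 of complex III were above 0, with medians of 0.12 and 0.14. In complex IV 5 of 7 were above 0, with a median of 0.12. The assembly factors and complex V were each split 3 to 3, with medians of 0.0050 and 0.03. No test was made of these counts, since the members vary together from pig to pig and are not independent. In males complex II had 2 higher and 2 lower, and complex III 1 higher and 5 lower. In females all members of both were above 0. SDHA, SDHC, UQCRC1 and UQCRFS1 were below 0 without lean pigs 2 and 12. SDHB, SDHC, SDHD, UQCR10, UQCR11, UQCRC1, UQCRFS1 and UQCRQ kept their sign with any single pig left out, and SDHA did not. The median over all members rests on few pigs. It was -0.03 without lean pig 2, -0.0075 without lean pig 12 and -0.0096 without obese pig 8. Without lean pigs 2 and 12 together it was -0.08, with 13 members higher and 35 lower. It was 0.09 without lean pig 5 and 0.07 without lean pig 10, with 38 higher and 10 lower in either case. Without lean pig 4 it was 0.06, with 40 higher and 8 lower.

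**Figure D1:**
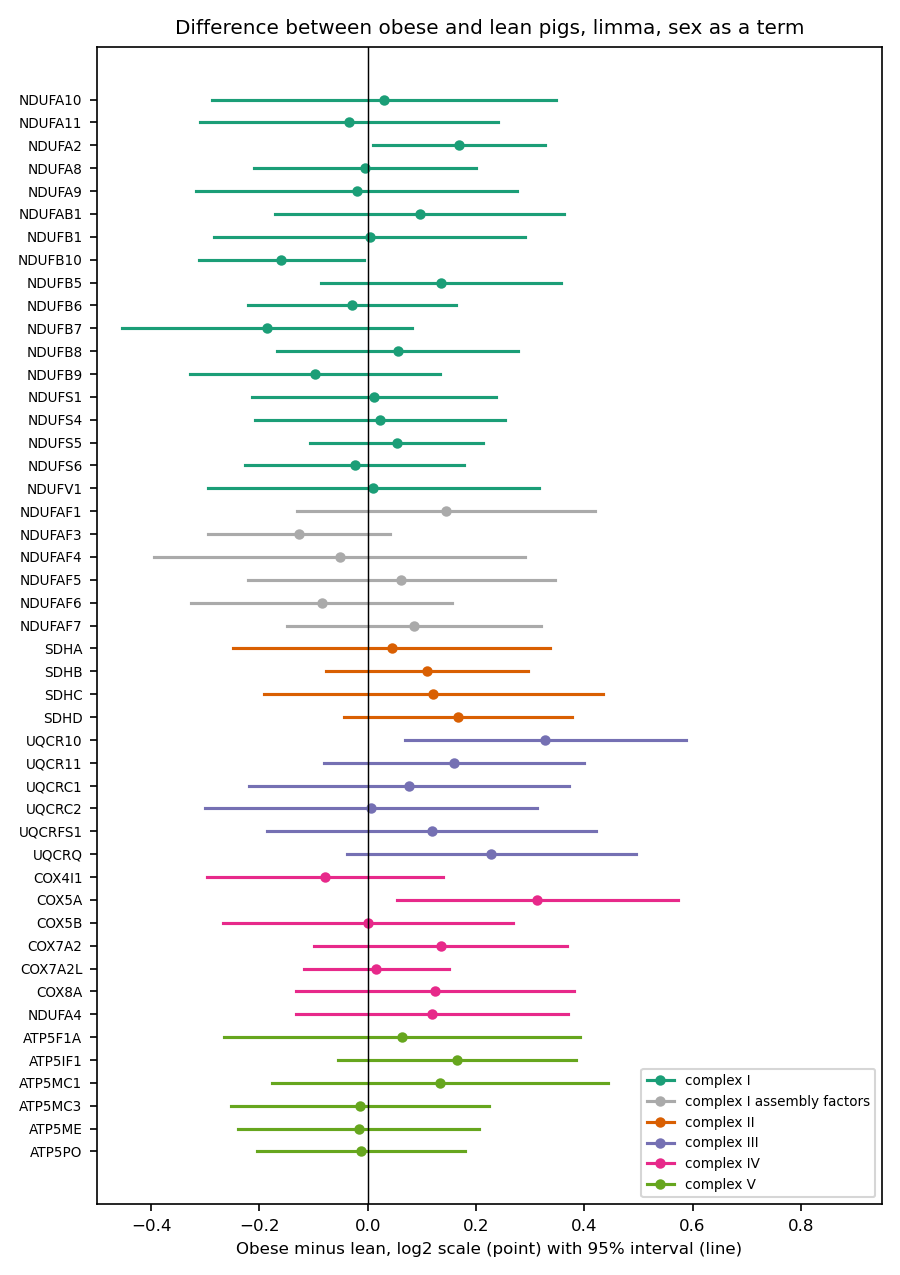
Difference between obese and lean pigs for 47 of the 48 members, on the log2 scale (point) with its 95% interval (line), from limma with sex as a term; colours mark the complexes. The intervals of 43 of the drawn members include 0, those of UQCR10, COX5A and NDUFA2 lie above it and that of NDUFB10 below it, and none of the 48 passed BH correction.

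The comparison of intermediate with lean pigs also gave 0 members past BH correction in limma, as for 0% of all genes. Here 35 members were higher (46.9% of all genes were) and 13 lower, with a median difference of 0.07 on the log2 scale beside -0.01 for all genes. The median was 0.01 without lean pig 12 and 0.01 without lean pig 2, with 27 members higher and 21 lower in either case. It was 0.11 without lean pig 4, 0.11 without lean pig 5 and 0.10 without intermediate pig 11, and 0.03 without intermediate pig 2 and 0.04 without intermediate pig 3. Without lean pigs 2 and 12 together it was -0.05, with 13 higher and 35 lower. It was -0.05 in males alone, with 13 higher, and 0.20 in females alone, with 42 higher. With limma 0 members had an unadjusted p under 0.05, against 12.5% of all genes, and the smallest BH-adjusted p was 0.445. There were 10 (beside 7.99% of all genes) in females alone and 5 (beside 16.3% of all genes) without lean pigs 2 and 12. With single pigs left out there were at most 2, beside 12.8% to 14.6% of all genes in the fits with that count. All members of complexes II and III were again above 0, but both comparisons use the same lean pigs. Between obese and intermediate pigs 23 members were higher (51.2% of all genes were) and 25 lower, with a median of -0.0083, and 0 members passed BH correction in limma, as for 0% of all genes. None of them had an unadjusted p under 0.05 in limma, against 4.28% of all genes. There was 1 without obese pig 4, 6 or 11 (beside 4.49% to 5.76% of all genes) and 1 with females fitted alone (beside 9.09%). The median was -0.04 without obese pig 8, with 14 higher and 34 lower, and -0.04 without obese pig 2, with 19 higher and 29 lower. It was 0.01 without obese pig 4, with 26 higher and 22 lower, and 0.01 without obese pig 11, with 25 higher and 23 lower. It was -0.05 in males alone, with 14 higher and 34 lower, and 0.04 in females alone, with 28 higher and 20 lower. Over the 3 groups together the F test of limma called 0 members after BH correction and 0.0163% of all genes.

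Complex I held 19 members, of which NDUFA2 was higher and NDUFB10 lower in obese pigs at an unadjusted p under 0.05 and none passed BH correction. NDUFA2, an accessory subunit of the arm that reaches into the matrix, ranged from 291 to 548 around a median of 410.0 normalized counts in lean pigs. In intermediate pigs it ranged from 398 to 501 around a median of 461, and in obese pigs from 387 to 569 around a median of 483. The lean range covered most of the obese one, and 10 of 12 obese pigs were above the lean median. The difference was 0.17 on the log2 scale (95% interval 0.01 to 0.33, limma, BH-adjusted p = 0.306).

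NDUFB10 and NDUFB7 are accessory subunits of the membrane arm. NDUFB10 ranged from 775 to 1367 around a median of 1047 normalized counts in lean pigs and from 825 to 1079.8 around a median of 914 in obese pigs, with 762 to 1227 (median 944) in the intermediate pigs. The obese pigs lay within the lean range, and 1 of 12 was above the lean median. The difference was -0.16 on the log2 scale (-0.31 to -0.01, limma, BH-adjusted p = 0.314). NDUFB7 had the lowest difference of all members, at -0.19 (-0.45 to 0.08), with 52.6 to 143 (median 98.6) normalized counts in lean and 68.8 to 106 (median 86.4) in obese pigs. Its BH-adjusted p in limma was 0.532, and 1 of 12 obese pigs was above the lean median.

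The core subunits of complex I that take up electrons had intervals that included 0. NDUFS1, the large core subunit with iron-sulphur clusters, had 707 to 1885 (median 1053) normalized counts in lean and 799 to 1908 (median 1087) in obese pigs, and its difference was 0.01 on the log2 scale (-0.21 to 0.24). NDUFV1, which binds NADH and FMN, had 688 to 2631 (median 1230.3) in lean and 1065 to 1841 (median 1269.8) in obese pigs, with a difference of 0.01 (-0.30 to 0.32). The lean pigs reached further both up and down than the obese pigs for NDUFV1. NDUFB8, a membrane arm subunit often used as a marker of assembled complex I, had 628 to 1563 (median 1016) normalized counts in lean and 776 to 1466 (median 1032) in obese pigs, a difference of 0.06 (-0.17 to 0.28). NDUFA11, another accessory subunit of the membrane arm, had 187 to 653 (median 412) in lean and 274 to 712 (median 378) in obese pigs. Its difference was -0.03 (-0.31 to 0.24). The lean ranges of NDUFB8 and NDUFS1 also covered nearly all of the obese pigs. The other 12 complex I subunits had differences from -0.10 to 0.14.

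The 6 assembly factors help to build complex I and are not part of the finished enzyme. NDUFAF3, which acts early in the assembly, had 227 to 399.9 (median 346) normalized counts in lean and 247 to 398 (median 306) in obese pigs, a difference of -0.13 on the log2 scale (-0.29 to 0.04). NDUFAF1, an assembly factor of the membrane arm, had 109 to 281 (median 186) in lean and 111 to 294 (median 207) in obese pigs and lay in the other direction, at 0.14 (-0.13 to 0.42). NDUFAF7, a methyltransferase needed for the assembly, had 115 to 251 (median 159) in lean and 149 to 270.0 (median 175) in obese pigs. Although 11 of 12 obese pigs were above the lean median of NDUFAF7, its difference was 0.09 (-0.15 to 0.32). NDUFAF5, which hydroxylates NDUFS7, was at 0.06 (-0.22 to 0.35). The smallest BH-adjusted p of the 6 in limma was 0.49.

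Complex II, the succinate dehydrogenase, links the citric acid cycle to the respiratory chain. SDHA, the flavoprotein that oxidizes succinate, had 1728 to 5870.4 (median 3737) normalized counts in lean pigs, 2899.7 to 6509.7 (median 3676) in intermediate pigs and 3006 to 4879.6 (median 3567) in obese pigs, with a difference between obese and lean pigs of 0.04 on the log2 scale (-0.25 to 0.34). SDHB, the iron-sulphur subunit, had 798 to 1522 (median 1039.8) in lean and 955 to 1610.5 (median 1191) in obese pigs, a difference of 0.11 (-0.08 to 0.30). For SDHB, 10 of 12 obese pigs were above the lean median, and for SDHA 4 of 12. The membrane anchor SDHC had 1464 to 5065 (median 2552) normalized counts in lean and 2066 to 4184 (median 2877) in obese pigs, and its difference was 0.12 (-0.19 to 0.43). SDHD, the other anchor, had 1586 to 3892 (median 2303) in lean and 2149 to 3869 (median 2590.3) in obese pigs, with 10 of 12 obese pigs above the lean median. Its difference of 0.17 (-0.04 to 0.38) was the highest of the complex, with a BH-adjusted p of 0.471 in limma. Lean and obese pigs overlapped for all 4 genes.

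Complex III held the member with the highest difference. UQCR10, a small subunit without a redox centre, ranged from 364 to 1136 around a median of 538 normalized counts in lean pigs. In intermediate pigs it ranged from 510.4 to 768 around a median of 633, and in obese pigs from 505 to 1089 around a median of 733. The groups overlapped, since the highest pig of all was lean, but 11 of 12 obese pigs were above the lean median. Obese pigs had 1.26 times the lean level (1.05 to 1.5), or 0.33 on the log2 scale (0.07 to 0.59), with an unadjusted p of 0.0148 and a BH-adjusted p of 0.209 in limma.

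UQCRQ, another small subunit, had 374 to 1364 (median 718) normalized counts in lean and 681 to 1288 (median 852) in obese pigs, and 11 of 12 obese pigs were above the lean median. Its difference was 0.23 on the log2 scale (-0.04 to 0.50, limma, BH-adjusted p = 0.431). UQCR11, the smallest subunit, had 250.1 to 711 (median 410.2) in lean and 365 to 713 (median 446) in obese pigs, a difference of 0.16 (-0.08 to 0.40). These 3 small subunits had the highest differences of the complex. UQCRFS1, the Rieske iron-sulphur protein, had 914 to 3412 (median 1534) normalized counts in lean and 1337 to 3254 (median 1769) in obese pigs, with a difference of 0.12 (-0.19 to 0.42). UQCRC1, a core protein of the matrix side, had 1009.5 to 3599.9 (median 1707) in lean and 1636 to 2845 (median 1793) in obese pigs, with a difference of 0.08 (-0.22 to 0.37). For UQCRFS1 and UQCRC1 the lowest and the highest pig were both lean.

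Complex IV, the cytochrome c oxidase, held 7 members. COX5A, a nuclear subunit of the matrix side, ranged from 612 to 1557 around a median of 883 normalized counts in lean pigs. It ranged from 812 to 1398 around a median of 999.8 in intermediate pigs and from 825 to 1999 around a median of 1102 in obese pigs. Of the 12 obese pigs, 11 were above the lean median, and the groups overlapped. Its difference was 0.31 on the log2 scale (0.05 to 0.57), with an unadjusted p of 0.0189 and a BH-adjusted p of 0.225 in limma. COX5B, the zinc-binding subunit beside it, had 979 to 3108 (median 1846) in lean and 1464 to 2866 (median 1724) in obese pigs. Its difference was -0.0001 (-0.27 to 0.27), and COX5A and COX5B were not tested against each other. COX4I1, the isoform of subunit 4 found in most tissues, had 1947 to 4449.6 (median 3051) normalized counts in lean and 2563 to 3841 (median 2655) in obese pigs. Its difference was -0.08 (-0.30 to 0.14), and 2 of 12 obese pigs were above the lean median.

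Of the isoform families of complex IV, COX7A2, the form found in most tissues, had 488 to 1207 (median 768) normalized counts in lean and 631 to 1283 (median 855) in obese pigs, a difference of 0.14 on the log2 scale (-0.10 to 0.37). COX7A2L, which takes part in the joining of complexes III and IV, had 1183 to 1806 (median 1356) in lean and 1173 to 1787 (median 1415) in obese pigs, and its difference was 0.02 (-0.12 to 0.15). With an SD of 0.15 on the log2 scale over the 36 pigs, COX7A2L varied least of the members. COX8A had 579 to 1552 (median 865) normalized counts in lean and 770.0 to 1469.8 (median 1016) in obese pigs, with a difference of 0.12 (-0.13 to 0.38). NDUFA4 had 1110.2 to 2962 (median 1787) in lean and 1504 to 3070.1 (median 1954) in obese pigs, with a difference of 0.12 (-0.13 to 0.37). The value of NDUFA4 is uncertain, since the reference names 1 pseudogene of it with which reads can be shared. Muscle isoforms such as COX6A2, COX7A1 and COX8B were not among the members. A gene with a low count in some pigs or without a symbol would be missing here. Their absence therefore does not show that they were not expressed.

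Complex V held 5 subunits of the ATP synthase and its inhibitor. ATP5F1A, the alpha subunit of the catalytic head, had 2737 to 10813 (median 5189.8) normalized counts in lean pigs, 4799.9 to 11377 (median 6147) in intermediate pigs and 3786 to 10616 (median 5493) in obese pigs. It varied most of the members, with an SD of 0.44 on the log2 scale over the 36 pigs, and its difference (obese minus lean) was 0.06 (-0.27 to 0.39). ATP5MC1 and ATP5MC3 are separate genes for the same mature c subunit of the membrane ring. ATP5MC1 had 383 to 1574 (median 804) normalized counts in lean and 593 to 1914 (median 858) in obese pigs, a difference of 0.13 (-0.18 to 0.44). ATP5MC3 had 1020.1 to 3325 (median 1821) in lean and 1414 to 2835 (median 1806) in obese pigs, a difference of -0.01 (-0.25 to 0.22). The groups overlapped widely for both genes. ATP5IF1, which blocks the reverse reaction of the synthase, had 863 to 1939 (median 1211) normalized counts in lean and 1040.3 to 2125 (median 1448) in obese pigs, with 10 of 12 obese pigs above the lean median. Its difference was 0.17 (-0.05 to 0.38, limma, BH-adjusted p = 0.488). The stalk subunit ATP5PO and the membrane subunit ATP5ME were at -0.01 and -0.02.

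Single pigs lay further apart than the group means, and the members moved together in them. The mean over the 48 members of a pig's log2 value minus the mean of the gene over all pigs is called the member mean below. It ranged from -0.62 to 0.55, which is a 2.25-fold range in level. The lowest pigs were lean pig 12, a female at -0.62, and lean pig 2, a male at -0.53, with 46 of 48 members below their own mean in each. The highest was obese pig 8, a male at 0.55 with 48 of 48 members above their mean. Lean pigs 4, 10 and 5, all males, followed at 0.44, 0.41 and 0.39. The lean group thus held pigs from both ends of the range.

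**Figure D2:**
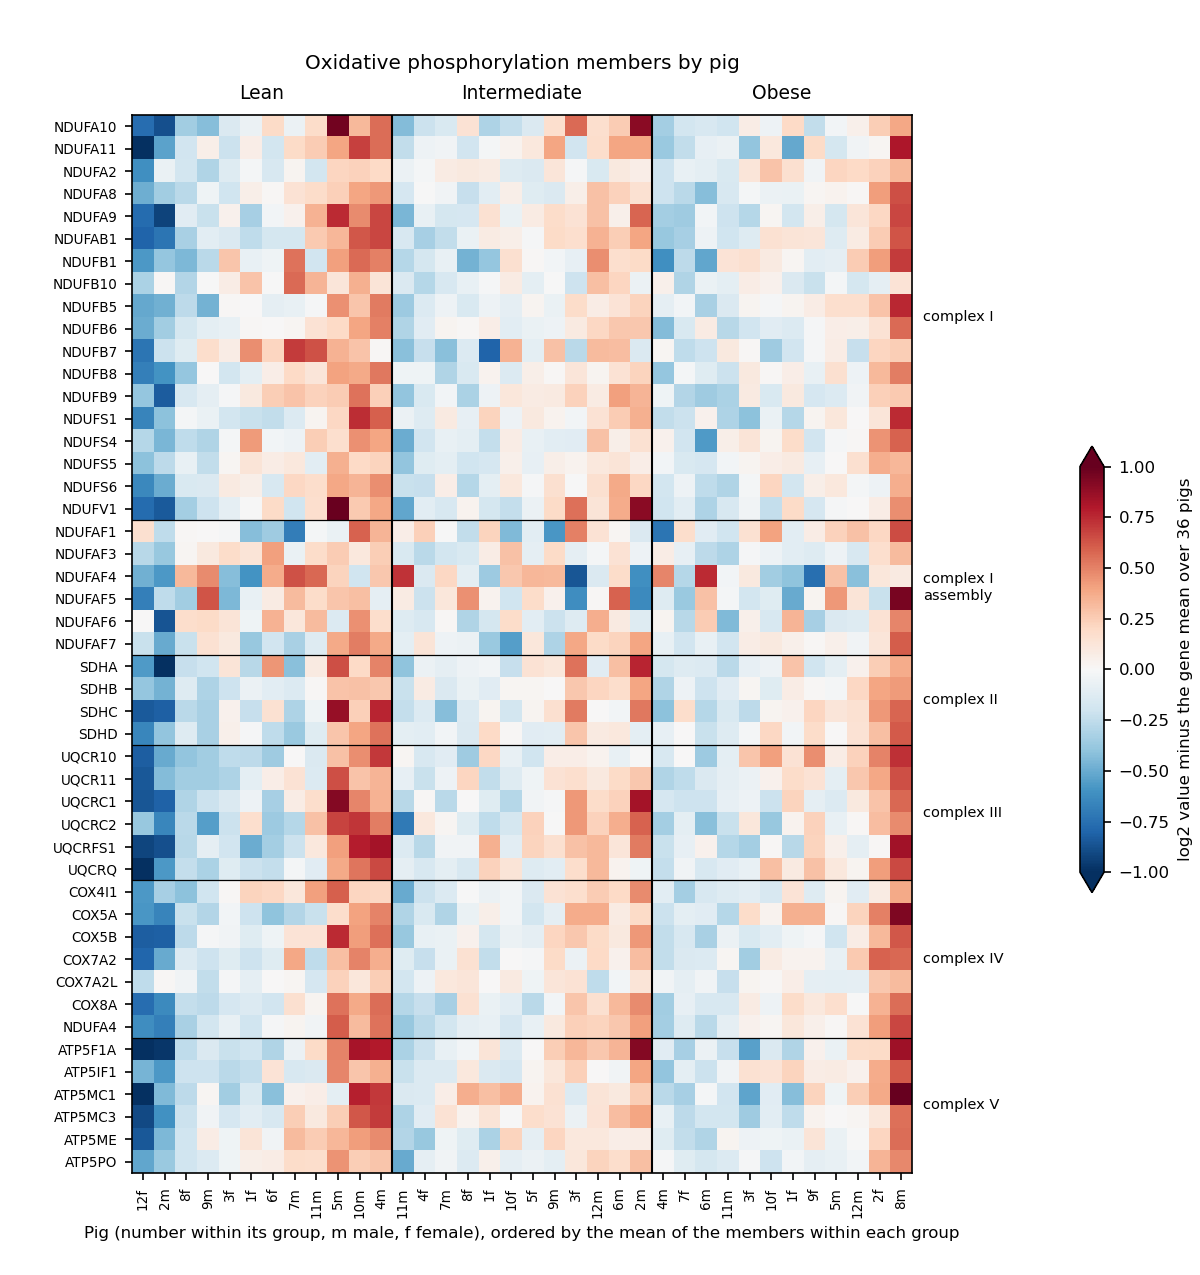
Log2 value of 47 of the 48 members (vertical) minus its mean over the 36 pigs, for each pig (horizontal) in the lean, intermediate and obese groups, ordered within a group by the member mean; colours are limited at 1 and -1 on the log2 scale. Lean pigs 12 and 2 are low in nearly every member drawn, and obese pig 8 is above the mean in every one.

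The SD of the member mean was 0.34 in lean pigs (n = 12), 0.14 in intermediate and 0.21 in obese pigs, and these spreads were not compared by a test. Obese pig 8, at 0.55, lay above the next obese pig, at 0.25, and the SD was not taken without it. The group means were -0.03, 0.01 and 0.01, respectively. Lean pigs ranged from -0.62 to 0.44, intermediate pigs from -0.24 to 0.26 and obese pigs from -0.19 to 0.55, so that the 3 groups overlapped. The lean pigs had the widest spread in each complex. In complex V they ranged from -0.84 to 0.55 and in complex III from -0.82 to 0.57, against -0.60 to 0.41 in complex I. The means by complex followed those of the other members from pig to pig, with Pearson's r from 0.90 for complex II to 0.96 for complex IV over 36 pigs (Spearman's rho 0.83 and 0.94). For the assembly factors r was 0.60 (rho 0.39), and 0.41 without the 2 pigs farthest from the median. All of these means come from the same libraries and size factors, and the members were chosen with earlier results known, so that the correlations are a description.

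**Figure D3:**
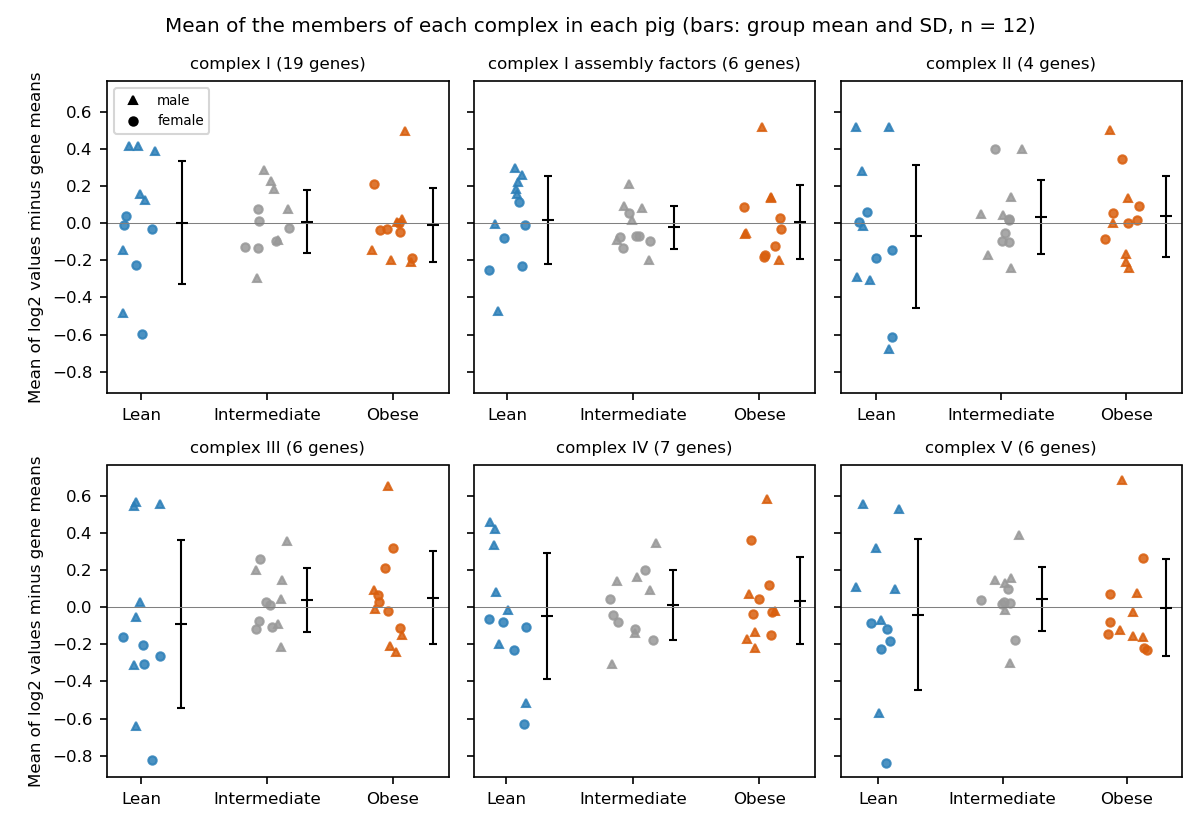
Mean over the members of each complex of the log2 value minus the gene mean (vertical), for each pig of the 3 groups (horizontal); triangles are males, circles females, and the bars give the group mean and SD (n = 12). In each of the 6 panels the lean pigs spread as far as or further than the other groups, and the group means lie close to 0.

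Over the 1128 pairs of members the median of Pearson's r across the 36 pigs was 0.68, and 74.7% of the pairs had r above 0.5. Over all 75061878 pairs of genes in the table the median was 0.04 and 2.49% were above 0.5. After terms for group and sex the median over the member pairs was 0.70. Among males alone it was 0.76 and among females alone 0.55. The first principal component of the scaled members held 65.3% of their variance. Between 2 subunits the median r was 0.73, and between a subunit and an assembly factor 0.38. Within complexes it was 0.78 for II and IV, 0.77 for V, 0.73 for III and 0.70 for I, against 0.23 within the assembly factors. NDUFA4 and COX5B followed the mean of the other members most closely, with r of 0.96 and 0.95. NDUFAF4, a partner of NDUFAF3 that is named here for its low value, had r of 0.03. It was also low in counts, with 29.0 to 74.3 (median 56.4) in lean and 30.3 to 80.1 (median 46.7) in obese pigs. NDUFB10 and NDUFB7, which were lower in obese pigs by their fitted values, had r of 0.44 and 0.46. The member mean had an r of -0.22 with the size factor and 0.36 with the reads per pig. Over all genes, lean pig 12, lean pig 2 and obese pig 8 had a median r with the other pigs of 0.956, 0.948 and 0.955. The 36 pigs ranged from 0.93 to 0.964. This r mostly reflects differences in level between genes, so that it cannot show whether a pig stood apart in a part of the genes.

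All 13 protein genes of the mitochondrial genome were in the table. They took 7.92% to 18.1% of the reads of a pig, with a median of 12.4% in lean pigs, 13.0% in intermediate pigs and 11.9% in obese pigs. None of them passed BH correction between obese and lean pigs in limma. COX1, the catalytic subunit of complex IV, had the largest difference, at 0.25 on the log2 scale (-0.12 to 0.63, BH-adjusted p = 0.547), with 123099 to 436579 (median 214819) normalized counts in lean and 194998 to 439312 (median 273984) in obese pigs. The other 12 lay between -0.08 and 0.07. ND6 lies on the other strand of the mitochondrial genome, and the library kit does not mark strand, so that its reads cannot be told apart from those of the opposite strand. The mean of these 13 genes followed the nuclear member mean with r of 0.66 over 36 pigs (rho 0.66), and with 0.61 without the 2 pigs farthest from the median. After terms for group and sex r was 0.75. Intermediate pig 12, a male, went against this, with -0.54 for the mitochondrial and 0.15 for the nuclear genes. Lean pig 2 was the lowest of the 36 pigs in the mitochondrial genes, at -0.63, and lean pig 5 the highest, at 0.66. The libraries were made from polyadenylated RNA.

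**Figure D4:**
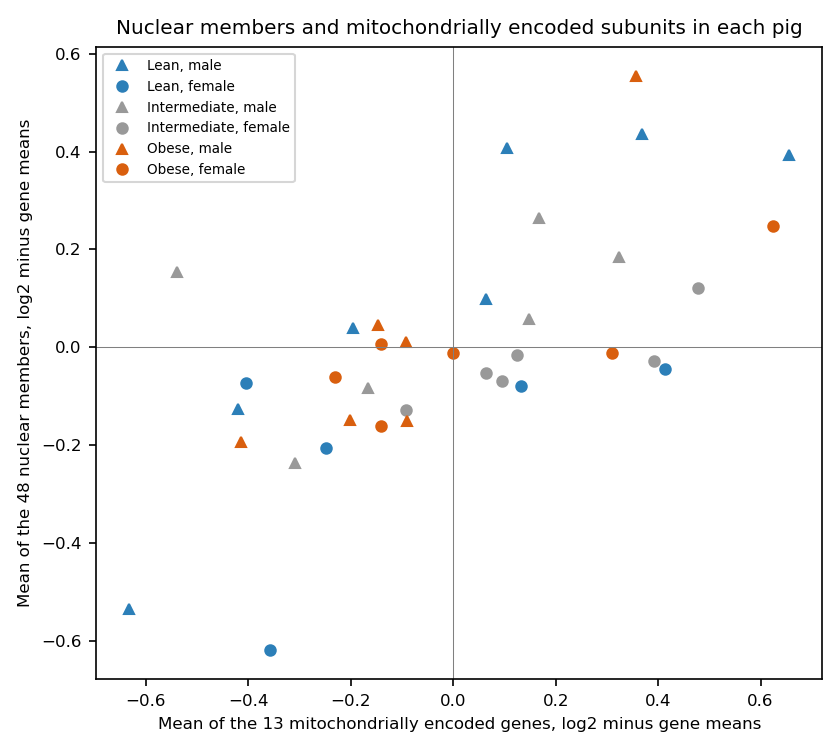
Mean of the 48 nuclear members (vertical) against the mean of the 13 mitochondrially encoded genes (horizontal) in each of the 36 pigs, both as log2 values minus gene means; colours mark the groups, triangles males and circles females. The points run from the lower left to the upper right with r = 0.66, and intermediate pig 12 lies apart at the upper left.

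By their fitted values, most members were higher in males than in females. With group as a term, 45 of 48 differences were above 0, against 47.7% of all genes, and their median was 0.14 on the log2 scale beside -0.01 for all genes. No member passed BH correction in limma, while 2.19% of all genes did. At an unadjusted p under 0.05 there were 9 members, all higher in males. That is 18.8% of the members, beside 18.3% of all genes in both directions together and 8.01% of all genes higher in males. The count was 17 (beside 19.5% of all genes) without lean pig 2 and 14 (beside 17.5% of all genes) without obese pig 4. It was 7 without lean pig 12 (beside 16.7% of all genes), with a median of 0.10 and 40 members higher in males. Without obese pig 8 it was also 7 (beside 17.2%), with a median of 0.10 and 41 higher. NDUFAF5 had the smallest BH-adjusted p, at 0.0815. It ranged from 38.2 to 114 normalized counts in the 19 males (median 63.1) and from 35.7 to 80.3 in the 17 females (median 49.1), a difference of 0.36 (0.13 to 0.59). NDUFAF5 passed without intermediate pig 2 (limma, BH-adjusted p = 0.0335) and without intermediate pig 8 (0.0398). NDUFA11 ranged from 259.8 to 712 in males (median 437) and from 187 to 497 in females (median 372). Its difference was 0.31 (0.08 to 0.54, limma, BH-adjusted p = 0.122). ATP5F1A ranged from 2781 to 11377 in males (median 6362) and from 2737 to 7655 in females (median 5144). The sexes overlapped for all 3 genes. Of the 13 mitochondrially encoded genes, 13 had differences below 0 between males and females, the other direction from the nuclear members, and none passed BH correction in limma. The 7 adipocyte markers were all lower in males by their fitted values, and LIPE (limma, BH-adjusted p = 0.00534) and PNPLA2 (0.0483) passed. The 9 macrophage markers were also all lower in males by their fitted values, with a median of -0.42, 4 of them at an unadjusted p under 0.05 and 0 after BH correction in limma. Of the 7 fibroblast or progenitor markers 5 were higher in males by their fitted values, with a median over the list of 0.62, and COL1A2 (limma, BH-adjusted p = 0.00676) and DCN (0.0222) passed. The 5 T or NK cell markers were all lower in males by their fitted values, with a median of -0.85, and 0 passed BH correction in limma (smallest adjusted p = 0.0563). The part of these markers in the difference between the sexes was not tested. The SD of the member mean was 0.17 in females (n = 17) and 0.27 in males (n = 19). Lean pig 12, the lowest female, was at -0.62 and the next female at -0.21, and the SD was not taken without that pig.

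Obese and lean pigs were then compared within each sex. In females 43 of 48 members were higher in obese pigs (40% of all genes were), with a median difference of 0.22 on the log2 scale beside -0.07 for all genes. In males 10 were higher (54.7% of all genes were) and 38 lower, with a median of -0.08 beside 0.02 for all genes. At an unadjusted p under 0.05 in limma there were 8 members in females, beside 15.8% of all genes, and 1 in males, beside 12.8%. The female count was 13 (beside 15.1% of all genes) with division by the whole size factor, 4 without lean pig 12 or obese pig 2 (beside 15.4% and 13.2%), and 5 without lean pig 8 or obese pig 1 and with lean and obese pigs fitted alone (beside 15.1% to 17.1%). The male count was 7 (beside 18.1% of all genes) without lean pig 2, 4 (beside 16.7% of all genes) without obese pig 8 and 0 without lean pig 7 or obese pig 12 (beside 11.1% and 10.5%). After BH correction there were 0 members in either sex, beside 0.0326% of all genes in females and 0.00816% in males. The interaction of sex with group (male minus female difference, obese against lean) in limma was below 0 for 45 of 48 members, where 39.6% of all genes were below 0. Its median was -0.30, beside 0.09 for all genes. No interaction of a member passed BH correction, and 0.00816% of all genes did. At an unadjusted p under 0.05 there were 4 members, UQCR10, NDUFB8, UQCRQ and COX8A, all below 0. They are 8.33% of the members, beside 12.9% of all genes in both directions together and 2.92% of all genes below 0. This count depended on single pigs and on the scaling. It was 18 (beside 16.9% of all genes) without obese pig 8, 16 (beside 17.5% of all genes) without lean pig 2, 2 without lean pig 4 or 10 or obese pig 4 (beside 9.25% to 12.2%), and 1 (beside 12% of all genes) without lean pig 12. It was 9 (beside 11.9% of all genes) with division by the whole size factor, with a median interaction of -0.39, 9 (beside 11.8% of all genes) with the median of each pig subtracted, and 2 (beside 12%) with lean and obese pigs fitted alone. A difference between the sexes was therefore not shown for any single member. In the same interaction all 5 T or NK cell markers were below 0 (median -1.24), as were 6 of the 7 adipocyte markers (median -0.28). All 7 fibroblast or progenitor markers were above 0 (median 0.56), as were 8 of the 9 macrophage markers (median 0.24) and all 4 endothelial markers (median 0.34). None of these markers passed BH correction in limma, and their part in the interaction of the members was not tested.

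UQCR10 had the largest interaction, at -0.72 on the log2 scale (-1.19 to -0.24), with an unadjusted p of 0.00434 and a BH-adjusted p of 0.215 in limma. The 5 lean females had 364, 469, 498, 501 and 549 normalized counts, and the 6 obese females ranged from 699 to 972 (median 806). Every obese female was above every lean female. The 7 lean males ranged from 429.5 to 1136 (median 620.0) and the 6 obese males from 505 to 1089 (median 638), which overlapped. The difference was 0.72 in females and 0.0018 in males. With females fitted alone UQCR10 passed BH correction in limma (0.72, interval 0.44 to 0.99, adjusted p = 0.0338), as did 0.171% of all genes in that fit, and 15 of 48 members had an unadjusted p under 0.05 beside 15.7% of all genes. In the fit of both sexes together without lean pig 12, the female difference of UQCR10 did not pass, as with all pigs, at 0.62 (0.25 to 0.98, limma, BH-adjusted p = 0.121), and the fit of females alone was not repeated without that pig.

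For UQCRQ the 5 lean females had 374, 630.3, 644, 689 and 748 normalized counts and the 6 obese females 725 to 1070.4 (median 943), so that 1 obese female was below the highest lean female. The interaction was -0.58 on the log2 scale (-1.09 to -0.07, limma, BH-adjusted p = 0.323). NDUFB8 had 628, 782, 879.7, 899 and 981 in the lean females and 1027 to 1209 (median 1039) in the obese females, without overlap. In males NDUFB8 had 629 to 1563 (median 1152) in lean and 776 to 1466 (median 936) in obese pigs, and its interaction was -0.49 (-0.91 to -0.07, limma, BH-adjusted p = 0.32). COX8A had 579, 797, 827, 841 and 880.0 in the lean females and 957 to 1194 (median 1069) in the obese females, also without overlap. COX5A, with 689.7, 722, 831, 894 and 1021 in the lean and 1064 to 1435 (median 1197) in the obese females, showed the same order. In all, 8 of 48 members (16.7%) had every obese female above every lean female, where 1.56% of all genes did. They were NDUFA2, NDUFB8, SDHB, UQCR10, COX5A, COX8A, NDUFA4 and ATP5IF1, from complexes I to V, and since members vary together they do not count as 8 separate results. No member had every obese female below every lean female, as 0.988% of all genes did, and none had every obese male above or below every lean male, as 0.106% and 0.18% of all genes did.

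**Figure D5:**
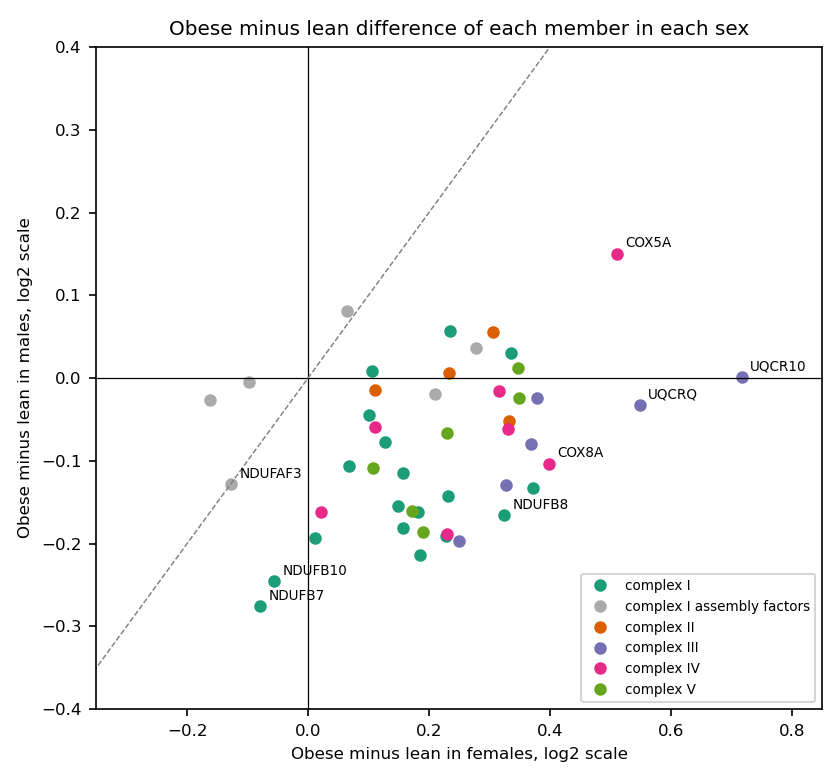
Difference between obese and lean pigs in males (vertical) against that in females (horizontal) for 47 of the 48 members, on the log2 scale; colours mark the complexes and the dashed line marks equal differences. Most points lie to the right of 0 and below the dashed line, and over all 48 members 43 are above 0 in females and 10 in males.

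The differences within the sexes rest on few pigs. Without lean pig 12, a female, the female median over the members was 0.09 on the log2 scale in place of 0.22, with 36 members higher and 12 lower, and the median interaction was -0.19. Without lean pig 2, a male, the median interaction was -0.43 and the male median -0.19. Without obese pig 8, a male, they were -0.43 and -0.21. Without lean pig 4, a male, the male median was -0.01, with 22 members higher and 26 lower in males. The male split was 20 higher and 28 lower without lean pig 5 and 21 and 27 without lean pig 10. Without lean pig 2 it was 3 and 45. With any single pig left out no member passed BH correction for the interaction in limma, with a smallest adjusted p of 0.0808 (UQCR10 without obese pig 8). The member mean of the 5 lean females was -0.62, -0.21, -0.08, -0.07 and -0.04, all below 0, while the 6 obese females ranged from -0.16 to 0.25.

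No other listed gene of the pathway passed BH correction between obese and lean pigs in limma. Of CYCS and the 13 mitochondrially encoded subunits, 9 were higher and 5 lower in obese pigs. CYCS, the cytochrome c that carries electrons from complex III to IV, had 524 to 2265 (median 899.9) normalized counts in lean and 774 to 2672 (median 1168) in obese pigs, a difference of 0.36 on the log2 scale (0.01 to 0.71, limma, BH-adjusted p = 0.332). Of 22 further assembly factors 11 were higher and 11 lower. TMEM126B, an assembly factor of complex I, had 293 to 493 (median 385) in lean and 310.2 to 873 (median 517) in obese pigs, a difference of 0.42 (0.11 to 0.72, limma, BH-adjusted p = 0.166). Among 17 genes of mitochondrial protein import 10 were higher and 7 lower, none at an unadjusted p under 0.05. Of 13 regulators of mitochondrial biogenesis 4 were higher and 9 lower. GABPB1, a subunit of a transcription factor of many respiratory genes, was lowest in p, with 137 to 211 (median 162) normalized counts in lean and 109.9 to 189 (median 137) in obese pigs and a difference of -0.25 (-0.43 to -0.08, limma, BH-adjusted p = 0.146). Of the 7 uncoupling proteins and carriers 6 were higher, led by UCP2, an uncoupling protein relative that is also found in immune cells, with 88.5 to 481 (median 155) in lean and 189.5 to 609.7 (median 229) in obese pigs. Its difference was 0.72 (0.23 to 1.20, limma, BH-adjusted p = 0.135), and that of VDAC1, the channel of the outer membrane, was 0.29 (0.05 to 0.54, BH-adjusted p = 0.223). Between males and females the assembly factor HIGD1A passed BH correction in limma, at 0.35 (0.15 to 0.55, adjusted p = 0.0483). From pig to pig, the mean of the assembly factors had r of 0.88 with the member mean over 36 pigs, that of the import genes 0.85, that of the carriers 0.44 and that of the regulators 0.13.

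Markers of other cells were set beside the members without a test of the difference between the lists. Of the 9 macrophage markers, 8 were higher in obese than in lean pigs at an unadjusted p under 0.05 and 0 after BH correction in limma. Their summed normalized counts ranged from 2414 to 12315 in lean pigs (median 3595), from 3495 to 12212 in intermediate pigs (median 8237) and from 5159 to 13212 in obese pigs (median 8732). Their mean had r of -0.47 with the member mean over 36 pigs (rho -0.47), -0.41 without the 2 pigs farthest from the median and -0.54 after terms for group and sex. The 7 adipocyte markers had r of -0.02 with the member mean, the 7 fibroblast or progenitor markers -0.29, the 5 T or NK cell markers 0.06, the 4 endothelial markers 0.16, the 2 red cell markers -0.22 and the 2 muscle markers -0.03. After terms for group and sex r was -0.45 for the fibroblast or progenitor markers, 0.29 for the endothelial, 0.24 for the T or NK cell and 0.14 for the adipocyte markers. TNNC2, a troponin of fast muscle, had at most 52.8 normalized counts in any pig. The single skin marker, KRT10, had r of 0.14. No B cell marker was found among the genes with a symbol that passed the count filter. These lists share the libraries and size factors with the members.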

How the data were processed

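RNA-Seq was made from subcutaneous adipose tissue of 36 pigs with a poly-A kit that does not mark strand. The authors used STAR for alignment to Sscrofa10.2, HTSeq for counting and DESeq size factors with voom (limma) for normalization, and the deposited values are log2 values for each gene and pig. Checked against the values, each is the log2 of the reads plus 0.5, divided by the size factor plus 1 and multiplied by 1000000. Whole reads were recovered within 0.1 for 99.9% of values. The study states a correction for gender at the normalization step. Since the deposited values return whole reads, they do not hold such a correction. Reads per pig were 8735839 to 11755925, which sets the counting error of low genes such as NDUFAF4 and NDUFAF5.

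Genes were tested on the deposited log2 values with limma 3.58.1 (R 4.3.3), with an intensity trend and terms for group and sex, and p-values were adjusted by Benjamini-Hochberg over all 12253 genes at 0.05, two-sided. The interaction of sex with group, males against females and each pair of groups were tested. On simulated data for obese against lean, 200 of 12253 genes were given a log2 change of 1, and 200 were recovered (100%) with 5 false calls. The genes were drawn independently of each other, with a dispersion of 0.05 and no difference between the sexes. The highest difference of a member was 0.33, so that this recovery does not show whether differences of the size of the members could be found. Weights from voom on the recovered reads were an alternative. Correlations (numpy 2.4.6) are Pearson's r over pigs, given without p-values. Figures were drawn with matplotlib 3.10.9.

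A single member is not reported here by name or drawn by gene, and is kept in counts and means. Members and lists were chosen with earlier results of these data known. Named were the 3 members with the smallest p between obese and lean pigs in each complex, listed catalytic, anchor and paralogous subunits, the members with the largest and the smallest SD, and the 3 with the smallest p for sex and for the interaction; others named were chosen after their values were seen. P-values treat the pigs as independent, although the groups held full sibs that could not be assigned here, and may therefore be too small. Alternatives were fits without sex, trend or equal weights, of single sexes, of 2 groups, with other scalings, without the lowest 25% of genes and without single pigs. Division by the whole size factor and leaving out lean pigs 2 and 12 together were added after seeing the data.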

Additional observations from a re-analysis of the deposited data

How the results depend on the processing

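No member passed BH correction between groups or for the interaction under the alternatives, except UQCR10 with females fitted alone, where 1 member passed at 0.72 on the log2 scale. With single pigs left out, 0 members passed between groups or for the interaction, and 0 to 1 between males and females. The median difference of the members between obese and lean pigs ranged from -0.025 to 0.086 with single pigs left out, below 0 in 3 of 36 cases, and was -0.08 in males alone and 0.22 in females alone. Of 309 values of the 31 named members under the other alternatives, 269 kept their direction and side of the threshold, and 39 changed sign. With males alone these were ATP5F1A -0.066, ATP5MC1 -0.024, COX7A2 -0.016, COX7A2L -0.059, COX8A -0.10, NDUFA4 -0.062, NDUFAF7 -0.019, NDUFB8 -0.17, NDUFS1 -0.077, NDUFV1 -0.11, SDHA -0.015, SDHC -0.052, UQCR11 -0.024, UQCRC1 -0.13, UQCRFS1 -0.079 and UQCRQ -0.032. Without lean pigs 2 and 12 they were ATP5F1A -0.12, ATP5MC1 -0.012, COX7A2L -0.00764, COX8A -0.00249, NDUFAF5 -0.026, NDUFB8 -0.068, NDUFS1 -0.087, NDUFV1 -0.14, SDHA -0.10, SDHC -0.032, UQCRC1 -0.076 and UQCRFS1 -0.036. With females alone they were ATP5MC3 0.17, COX4I1 0.021, COX5B 0.23 and NDUFA11 0.19. Division by the whole size factor gave ATP5MC3 0.000420 and COX5B 0.015. COX5B was also 0.00312 with lean and obese pigs alone, 0.011 with the pig median subtracted and 0.000272 with voom weights. Without the sex term they were NDUFS1 -0.00872 and NDUFV1 -0.00199. With single pigs left out, 54 of 1116 values changed sign, over the ranges ATP5F1A -0.029 to 0.13, ATP5MC3 -0.088 to 0.040, COX5B -0.078 to 0.061, COX7A2L -0.015 to 0.040, NDUFA11 -0.13 to 0.015, NDUFAF5 -0.012 to 0.11, NDUFB8 -0.00509 to 0.10, NDUFS1 -0.054 to 0.070, NDUFV1 -0.066 to 0.096 and SDHA -0.041 to 0.11. The cause was not tested. No paired analysis was possible because the labels number the pigs from 1 to 36 across groups, so that no groups share numbers. Depth sets the counting error of members with low counts, such as NDUFAF4 and NDUFAF5.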

Other observations

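Genes outside the members were ranked after their values were seen by Pearson's r with the member mean over the 36 pigs, all from the same libraries and size factors. Of 12205 such genes 64 had r above 0.8, and 35 of these had a symbol. The highest with a symbol were ECSIT, a complex I assembly factor that also acts in innate immune signalling, at 0.91, GPX4, which reduces lipid peroxides, at 0.88, APOO, a protein of the inner membrane junctions, at 0.88, and MDH2, the malate dehydrogenase of the citric acid cycle, at 0.88. There were 36 genes with r below -0.6, with ARHGEF10L at -0.71 and SWAP70 at -0.70 among them.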
